A study of Mus musculus with 14 samples.

Results

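The genes described here are 37 type I interferon response genes of the mouse, a list given by name, and their RNA was followed in peritoneal macrophages by a single-colour microarray. Of the 37 genes, 35 had at least 1 probe and were tested, through 45 of the 55681 probes and among 20347 genes in all. Mx1 and Mx2 were matched to no probe. All mice were C57BL/6, kept at facilities of NYU and the University of Edinburgh, and every injection went into the peritoneal cavity. The 4 groups were PBS vehicle (PBS, 3 arrays), IL-4 complex (IL-4c, 4 arrays), thioglycollate medium (Thio, 3 arrays) and both together (Thio+IL-4c, 4 arrays). The complex, 5 µg IL-4 bound to antibody 11B11 (25 µg), prolongs the action of IL-4 in the animal, and thioglycollate was 2 ml of a 4% medium, an irritant that draws blood monocytes into the cavity. The cells were sorted as positive for CD11b and F4/80, so the PBS and IL-4c arrays held mainly resident macrophages and the Thio and Thio+IL-4c arrays mainly elicited, monocyte-derived ones, as the labels describe them. Separate animals are not named for the arrays of a group in the labels; the p-values therefore reflect only how far these samples spread, which may be technical.

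Type I interferons are secreted when a cell senses viral or bacterial nucleic acid, and they bind the receptor made of Ifnar1 and Ifnar2 on the same or neighbouring cells. The kinases Jak1 and Tyk2 then activate a transcription factor complex that contains Stat2 and Irf9 and binds a short promoter element, the interferon-stimulated response element (ISRE), and switches on a large set of genes. Macrophages keep a part of this program running without infection, through low constant interferon signalling. The genes followed here include sensors of foreign RNA and DNA, transcription factors of the pathway, enzymes and RNA-binding proteins that block viral replication, and interferon-inducible GTPases.

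Promoter windows of 6 of these genes are printed because they hold the ISRE letters searched for here and because their RNA differed in how it moved with IL-4c. The sequences are from RefSeq (GRCm38.p6), read 5′ to 3′ on the strand of the gene, with capitals marking the ISRE letters: GAAA, any 2 bases and GAAA again, or the reverse complement (TTTC, any 2 bases, TTTC) where the match lies on the opposite strand.
Isg15, chr4:156200850-156200921, minus strand: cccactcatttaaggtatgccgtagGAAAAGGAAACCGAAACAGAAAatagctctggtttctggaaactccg
Ifit1, chr19:34640760-34640838, plus strand: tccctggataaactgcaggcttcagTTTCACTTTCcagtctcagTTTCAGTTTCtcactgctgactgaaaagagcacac
Rsad2, chr12:26456538-26456597, minus strand: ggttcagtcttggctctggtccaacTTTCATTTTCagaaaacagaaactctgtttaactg
Bst2, chr8:71537562-71537627, minus strand: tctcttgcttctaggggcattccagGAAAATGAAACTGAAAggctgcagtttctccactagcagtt
Gbp2, chr3:142620579-142620638, plus strand: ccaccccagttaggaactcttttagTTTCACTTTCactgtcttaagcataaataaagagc
Gbp5, chr3:142496744-142496803, plus strand: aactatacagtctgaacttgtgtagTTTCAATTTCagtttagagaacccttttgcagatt
The Isg15 window carries 3 overlapping matches, that of Bst2 2 overlapping ones and that of Ifit1 2 separate ones, while Rsad2, Gbp2 and Gbp5 carry 1 each. The Ifit1 window lies within the annotated span of the neighbouring gene models Ifit1bl1 and Ifit1bl2.

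Over all 27 tested genes with a promoter entry, 16 (59.3%) held the ISRE letters on either strand in the window from 250 bases before to 50 bases after an annotated start. The same letters occurred in 3.99% of 27025 genes, and in 3.44% of 32851 promoter windows. The letters TTCNNNGAA, another promoter element of interferon genes (GAS), occurred in 8 of the 27 genes (29.6%) and in 9.55% of all genes. The wider form, TTC and GAA with any 4 bases between, occurred in 7 of the 27 (25.9%) and in 8.01% of all genes; in Oas1a and Oas1g 1 such match overlapped the ISRE letters, as did 1 TTCNNNGAA match in Bst2. The 11 genes without the ISRE letters in this window were Ifit2, Isg20, Irf7, Irf9, Irf1, Oasl1, Oasl2, Ifi44, Ifi35, Cmpk2 and Xaf1. A match describes letters in a window and is no evidence of a bound site.

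**Figure D1:**
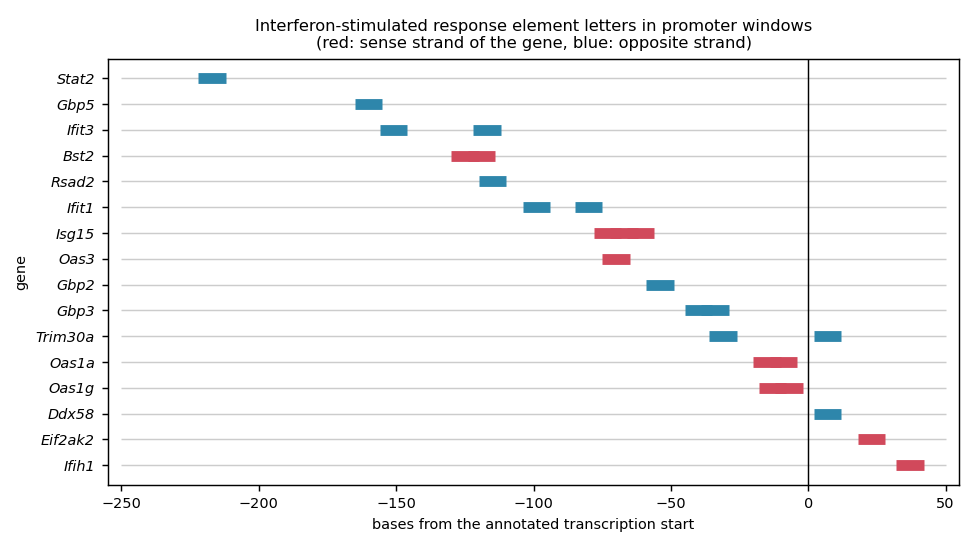
Positions of the ISRE letters in the promoter windows of the 16 genes that hold it; the x axis gives bases from the annotated transcription start, and each bar is 1 match (red, strand of the gene; blue, opposite strand). The matches of Isg15, Ifit1, Rsad2 and Bst2 lie upstream of the start, those of Ddx58, Eif2ak2 and Ifih1 after it.

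Several of the genes lie side by side. Ifit1 (chr19:34640889-34650009), Ifit2 (chr19:34550550-34576534) and Ifit3 (chr19:34583119-34588982) form 1 cluster, Oas1a, Oas1g, Oas2 and Oas3 another (chr5, from Oas2 at 120730333 to the end of Oas1a at 120907544), and Oasl2 (chr5:114896926-114912245) lies next to Oasl1 (chr5:114923143-114937911). Rsad2 (chr12:26442743-26456452) neighbours Cmpk2 (chr12:26469117-26479837), and Gbp5, Gbp3 and Gbp2 lie in that order on chr3 from 142496934 to 142638008. Genes of the Oas1, Ifit and Gbp families have close copies, and whether a probe also binds a copy was not tested.

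All levels are log2 signals relative to the 75th percentile of their array, so a level of 0 is as bright as that percentile; levels of different genes are not comparable. Of the 35 genes, 33 were well above background on all 14 arrays; Ifit2 was so on 2 of 3 PBS arrays, and Ifi44 on 1 of 3 Thio and 3 of 4 Thio+IL-4c arrays. A difference was called at an adjusted p under 0.05 (limma, Benjamini-Hochberg over all 20347 genes), and every p beside a gene is this adjusted value. The sort markers Itgam (CD11b) and Adgre1 (F4/80) were above the 75th percentile on every array but not level across groups. Itgam was at 5.73 to 6.11 on PBS and IL-4c arrays and at 4.05 to 4.33 on Thio and Thio+IL-4c arrays. Adgre1 was at 6.44 to 6.61 in PBS, 6.22 to 6.36 in IL-4c, 4.68 to 4.77 in Thio and 3.45 to 3.71 in Thio+IL-4c, lower in the groups in which most of the interferon genes were lower; the part of this in the results was not tested. The 75th percentile of the signal ran from 1271.0 to 1810.5 on the PBS arrays and from 3050.8 to 3865.6 on the IL-4c arrays, so brightness moved with treatment in that comparison; its part in the results was not tested.

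A pair of arrays stood apart. PBS 3 was the highest PBS array for 32 of the 35 genes, and a median of 0.85 above the mean of PBS 1 and PBS 2, with a range from -0.59 for Ly6a to 3.25 for Ifi44; over all genes that median was -0.01, and PBS 3 was highest for 35.5% of them. It was also the dimmest array, with 79.4% of probes well above background. On PBS 3 the mean level of 8 B cell markers was -0.53, against 0.27 and -0.14 on PBS 1 and PBS 2. The 0.27 leaves out a marker that had no value on PBS 1. The mean of 6 plasmacytoid dendritic cell markers was 0.09 on PBS 3, against 0.98 and 0.33, but the markers went both ways. Of the PBS arrays, PBS 3 was lowest for Ly6d (-0.02), Spib (-1.15), Klk1 (-5.29) and Ccr9 (-3.63). It was highest for Siglech (6.83) and Pacsin1 (3.77). The part of brightness or of other cells in the high values of PBS 3 was not tested. Thio 1 correlated across genes at 0.850 and 0.867 with Thio 2 and Thio 3, which correlated with each other at 0.985, and at 0.918 to 0.931 with the PBS arrays. Thio 1 shared slide 1 with all PBS and IL-4c arrays, whereas Thio 2, Thio 3 and all Thio+IL-4c arrays were on slide 2, which was scanned in another run. Markers of resident macrophages were nonetheless low on Thio 1, where Gata6 was -2.04 and Timd4 -2.97, as on the other Thio arrays and unlike the PBS arrays, where Gata6 was 3.11 to 3.15. Slide and thioglycollate can therefore be told apart only through Thio 1, to which array quality weights gave 0.058, against 0.648 to 2.152 for the other arrays.

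**Figure D2:**
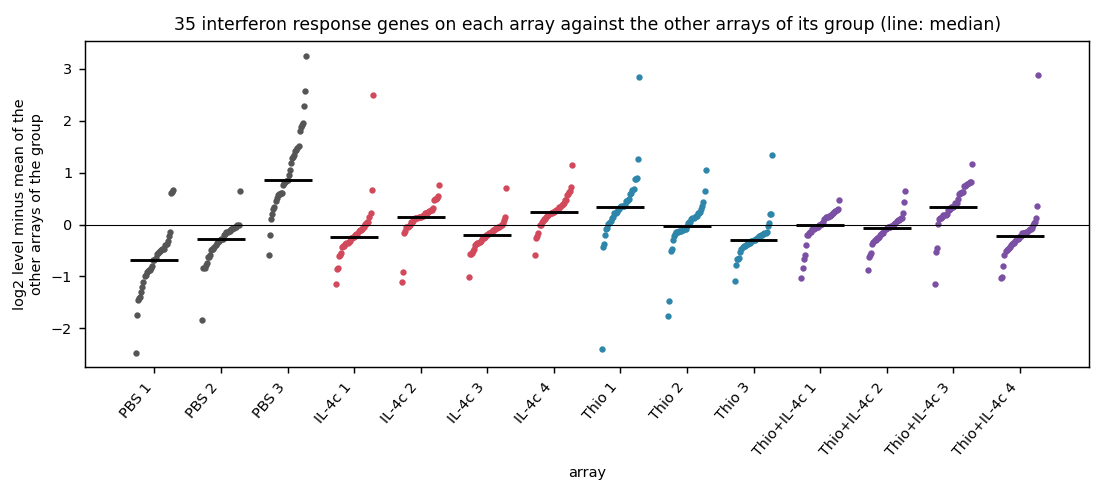
Each point is 1 of the 35 genes on 1 array, as its log2 level minus the mean of the other arrays of its group (y axis), with arrays on the x axis and the median as a line. PBS 3 has the highest median, 0.85, and PBS 1 the lowest, -0.67.

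How IL-4c alters interferon genes in resident macrophages was the question of the first comparison. Few of them changed, and in both directions: 8 of 35 rose and 2 fell, while 16.8% of all genes were called higher and 15.4% lower, so the share of rises was not far from that of all genes. The median difference over the 35 genes was 0.29, against -0.01 over all genes. The rises were led by Oasl1, Ly6a and Isg15, and the falls were those of Irf1 and Isg20. The split was 5 higher and 4 lower under quantile normalization in place of the 75th percentile, against 15.8% and 15.1% of all genes. It was 15 higher and 1 lower in the authors' deposited values, against 23.2% and 15.9% of all genes. In bulk RNA of sorted cells, fewer cells of a type and less RNA per cell cannot be told apart.

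Oasl1, which encodes a 2′-5′ oligoadenylate synthetase-like protein known to hold back translation of Irf7, stood at -0.94, -0.52 and 1.56 on the PBS arrays and at 4.0, 4.16, 4.37 and 4.51 on the IL-4c arrays. No IL-4c array overlapped a PBS array, and the difference was 4.23 (SE 0.47, 95% interval 3.21 to 5.25, adjusted p = 2.38e-05), or 18.7-fold. Ly6a, which encodes the surface protein Sca-1, was at 1.43, 0.98 and 0.61 in PBS and at 2.84, 3.48, 3.25 and 3.58 in IL-4c, a difference of 2.28 (SE 0.36, adjusted p = 0.0004). The groups again did not overlap, and Ly6a was 1 of only 3 genes for which PBS 3 was not the highest PBS array, with Oas1g and Gbp5. Isg15, a ubiquitin-like protein that is conjugated to other proteins, was at 1.01, 1.19 and 2.61 in PBS and at 2.99, 3.38, 3.02 and 3.69 in IL-4c. It rose by 1.67 (SE 0.35, adjusted p = 0.00297), and by 1.63 on its other probe.

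The other rises were smaller. Among the synthetases that make 2′-5′ oligoadenylates and so activate the nuclease RNase L, Oas3 rose by 1.05 (SE 0.37, adjusted p = 0.0493) and Oas1a by 0.70 (SE 0.24, adjusted p = 0.0419), while the difference was -0.17 for Oas2 and 0.22 (SE 0.79) for Oas1g, neither called; the other, dimmer probe of Oas1g gave 0.87 (adjusted p = 0.00424 over all probes). For Oas1a the other probe gave 0.44 (adjusted p = 0.134 over all probes), and the mean of its probes was not called (0.57, adjusted p = 0.0691). Zbp1, a sensor of Z-form nucleic acid, rose by 0.91 (adjusted p = 0.0391). The GTPase Gbp3 rose by 0.65 (SE 0.15, adjusted p = 0.00447) and the RNA helicase Dhx58 by 0.55 (adjusted p = 0.0492). Groups overlapped for Oas3, Zbp1 and Dhx58, in each case because PBS 3 reached into the IL-4c range.

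Irf1, a transcription factor induced by interferons of both types, fell. It was at 3.82, 4.01 and 4.76 in PBS and at 2.64, 3.11, 3.02 and 3.03 in IL-4c, a difference of -1.25 (SE 0.23, adjusted p = 0.00125), and -1.42 on its other probe. Isg20, an RNA exonuclease, was at 2.39, 2.44 and 2.61 in PBS and at 1.67, 1.92, 1.65 and 1.59 in IL-4c, a difference of -0.77 (SE 0.15, adjusted p = 0.00146); in the authors' deposited values it narrowly missed the threshold (adjusted p = 0.0509). The groups were separate for both genes. Ifit3, which binds viral RNA together with Ifit1, had the lowest difference of all, -1.58, but its SE was 0.62 and it was not called (adjusted p = 0.0745).

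Without PBS 3 the count was 17 higher and 2 lower, against 14.4% and 12.8% of all genes, and the median difference was 0.62. All 10 calls of the full set were among these 19. The 9 added genes were Rsad2 (1.69), Ifit1 (1.49), Usp18 (1.17), Irf7 (1.13), Xaf1 (1.04), Cmpk2 (0.92), Eif2ak2 (0.68), Ddx58 (0.66) and Ifih1 (0.48). With all arrays these 9 genes had differences from 0.29 to 1.05 and adjusted p-values from 0.0776 to 0.513. The other probe differed in sign for Cmpk2 (-0.31), Ddx58 (-0.24) and Xaf1 (-0.25) with all arrays. Leaving out PBS 1 instead gave 4 higher and 4 lower, with 28.3% of all genes called, and a median difference of 0.1. Leaving out PBS 2, IL-4c 1, IL-4c 2 or IL-4c 4 gave 6 calls, and so did leaving out Thio+IL-4c 1 or Thio+IL-4c 2. The Thio+IL-4c arrays enter only through the shared spread. In the fits with 6 calls, 27.3% to 31.6% of all genes were called.

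**Figure D3:**
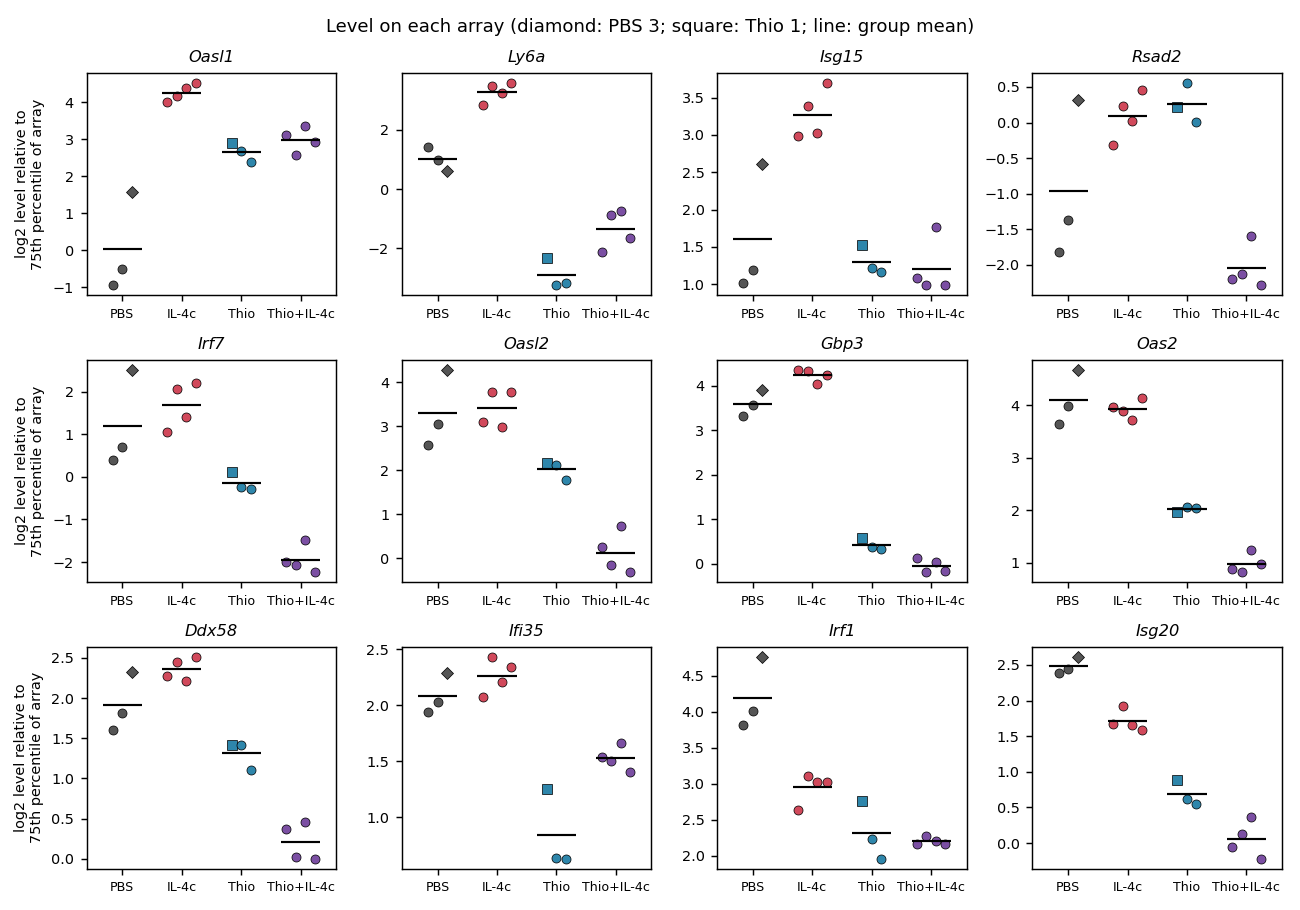
Level of 12 of the genes on each of the 14 arrays, as log2 relative to the 75th percentile of the array (y axis), by group (x axis), with group means as lines, PBS 3 as a diamond and Thio 1 as a square. Oasl1, Ly6a and Isg15 are highest on the IL-4c arrays, while the group means of Rsad2, Irf7, Oasl2, Oas2 and Ddx58 are lowest for Thio+IL-4c.

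The same IL-4c treatment in elicited cells asked whether recruited macrophages respond alike. Here 14 of the 35 genes fell and 3 rose, while 23.0% of all genes were called lower and 16.3% higher. The median difference over the 35 genes was -0.44, against 0.04 over all genes. The falls were led by antiviral effectors (Rsad2, Ifit3, Oasl2) and by Irf7, the factor that amplifies interferon production, and the rises were those of Ly6a, Zbp1 and Ifi35.

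Rsad2 encodes viperin, an enzyme that makes a chain-terminating nucleotide. It was at 0.22, 0.55 and 0.01 on the Thio arrays and at -2.2, -2.12, -1.59 and -2.28 on the Thio+IL-4c arrays, a difference of -2.31 (SE 0.42, adjusted p = 0.000835). The values with both treatments lay near those of PBS 1 and PBS 2, which were -1.82 and -1.37, and below every IL-4c array (-0.32, 0.23, 0.02 and 0.45). Cmpk2, the mitochondrial nucleotide kinase gene beside Rsad2, fell by 1.16 (SE 0.32, adjusted p = 0.0126), and its other probe gave -0.89.

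Irf7 was at 0.11, -0.23 and -0.28 in Thio and at -2.01, -2.06, -1.48 and -2.23 in Thio+IL-4c, a difference of -1.81 (SE 0.45, adjusted p = 0.0072). Oasl2, a relative of Oasl1 with ubiquitin-like domains, was at 2.16, 2.12 and 1.77 in Thio and at 0.25, -0.16, 0.72 and -0.31 in Thio+IL-4c, a difference of -1.89 (SE 0.39, adjusted p = 0.002). The groups did not overlap for either gene. Ifit3 was at -1.97, -1.93 and -2.61 in Thio and at -3.96, -4.79, -3.45 and -5.08 in Thio+IL-4c, a difference of -2.15 (SE 0.62, adjusted p = 0.0159). Its neighbours moved less surely: Ifit1 differed by -1.22 (adjusted p = 0.0644), and Ifit2 by 0.09 with an SE of 0.69.

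Of the RNA helicases that sense viral RNA, Ddx58 (RIG-I) fell by 1.1 (SE 0.18, adjusted p = 0.000466), from 1.41, 1.41 and 1.11 to 0.37, 0.02, 0.46 and 0.0. Its other probe gave -0.17, so the probes disagree in size. Ifih1 (MDA5) differed by -0.44 and Dhx58 by -0.40, neither called, although the Thio and Thio+IL-4c arrays did not overlap for either. The other falls were those of Rtp4 (-1.23), Oas2 (-1.04), Parp14 (-0.87), Gbp2 (-0.83), Trim30a (-0.72), Isg20 (-0.63), Bst2 (-0.62) and Gbp3 (-0.47), with adjusted p-values from 0.0011 for Gbp2 to 0.0392 for Bst2. Bst2 encodes tetherin, which holds budding virus at the cell surface, Gbp2 and Gbp3 are guanylate-binding GTPases that act on vacuoles of intracellular pathogens, and Parp14 is an ADP-ribosyltransferase. For Isg20 the other probe gave -0.06.

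Ly6a rose here too, from -2.34, -3.25 and -3.2 in Thio to -2.13, -0.87, -0.74 and -1.67 in Thio+IL-4c, a difference of 1.58 (SE 0.36, adjusted p = 0.00444). Ifi35, an interferon-induced leucine zipper protein, was at 1.25, 0.64 and 0.63 in Thio and at 1.54, 1.5, 1.66 and 1.4 in Thio+IL-4c, a difference of 0.68 (SE 0.16, adjusted p = 0.00543). Zbp1 rose by 0.84 (adjusted p = 0.0486), with 0.8 on its other probe. The groups were separate for each of these 3 genes.

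Within slide 2 alone, which leaves Thio 2 and Thio 3 against the 4 Thio+IL-4c arrays, 11 genes were lower and 3 higher, against 19.9% and 21.2% of all genes; Gbp3, Isg20 and Rtp4 were not among them. With slide as a fixed block in the fit of all arrays, 12 were lower and 2 higher, against 21.2% and 20.8% of all genes. Bst2 (adjusted p = 0.136), Gbp3 (0.068) and Zbp1 (0.139) were then no longer called, and neither were they without Thio 1. In this comparison slide 2 alone, the slide block and leaving out Thio 1 give the same differences, so they are not separate checks.

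The interaction tests whether the IL-4c difference was unlike in elicited and resident cells: it is the difference Thio+IL-4c minus Thio less the difference IL-4c minus PBS, so a negative value means less of a rise or more of a fall in elicited cells. It was called negative for 15 genes and positive for 1, against 19.8% and 12.8% of all genes. The median over the 35 genes was -0.70, and -0.05 over all genes.

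The largest was that of Oasl1, -3.89 (SE 0.66, adjusted p = 0.000796). Oasl1 was already high in elicited cells without IL-4c, at 2.89, 2.69 and 2.38, and IL-4c left it at 3.1, 2.58, 3.35 and 2.92, a difference of 0.34 with an interval from -0.68 to 1.36. Rsad2 followed with -3.36 (SE 0.59, adjusted p = 0.000991); its differences were 1.05 in resident and -2.31 in elicited cells. Isg15 had an interaction of -1.76 (adjusted p = 0.0181), since it was at 1.52, 1.22 and 1.16 in Thio and at 1.08, 0.99, 1.77 and 0.99 in Thio+IL-4c. Irf7 (-2.29), Ifit1 (-2.08), Oasl2 (-2.01), Cmpk2 (-1.68), Oas3 (-1.60), Ddx58 (-1.55), Xaf1 (-1.29), Gbp3 (-1.11), Oas1a (-1.0), Dhx58 (-0.95), Oas2 (-0.87) and Ifih1 (-0.73) made up the rest, with adjusted p-values from 0.000709 for Ddx58 to 0.041 for Oas1a. The second probes of Ddx58 and Xaf1 gave 0.08 and 0.8, so the direction in these genes depends on the probe. The other probe of Cmpk2 gave -0.58 (adjusted p = 0.376 over all probes), and the mean of its probes was not called (-1.13, adjusted p = 0.0742). All 3 RNA helicases of the RIG-I family were thus called negative by the probe used.

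Irf1 was the gene called positive, with 1.13 (SE 0.33, adjusted p = 0.02); it fell with IL-4c in resident cells and differed by -0.11 in elicited ones. In the authors' deposited values this interaction was not called (adjusted p = 0.0978). The other probe of Irf1 gave an interaction of 0.76 (adjusted p = 0.171 over all probes) and a difference of -0.65 in elicited cells, neither called. The mean of the Irf1 probes had a called interaction of 0.95 (adjusted p = 0.0454). For Ly6a the interaction was -0.70 (interval -1.83 to 0.42), for Zbp1 -0.08 (interval -1.03 to 0.87) and for Isg20 0.14 (interval -0.32 to 0.59), and none of these was called. The other probe of Isg20 gave 0.67 (adjusted p = 0.0287 over all probes), and Ly6a in the authors' deposited values gave -1.32 (adjusted p = 0.0462).

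With slide as a fixed block 11 interactions were negative and 2 positive, against 21.1% and 19.0% of all genes. Ifit1, Oas1a, Oas3 and Xaf1 were then not called, with adjusted p-values from 0.0674 to 0.0758, and Ifi35 was called positive, at 0.71. Without PBS 3 there were 21 negative and 1 positive, against 17.4% and 11.0% of all genes, and these included all 16 calls of the full set. The added genes were Rtp4, Bst2, Stat2, Trim30a, Parp14 and Gbp2, at -1.64 to -0.60. Most of the 35 genes were high on PBS 3, so leaving it out lowers most interactions by construction. The count fell to 9 without PBS 1 and to 8 without PBS 2, where 28.1% and 28.5% of all genes were called. In these fits the share of the 35 genes was no larger than that of all genes. It was 10 without any of IL-4c 2, IL-4c 4 or Thio+IL-4c 4, near the 29.3%, 28.6% and 29.7% of all genes.

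**Figure D4:**
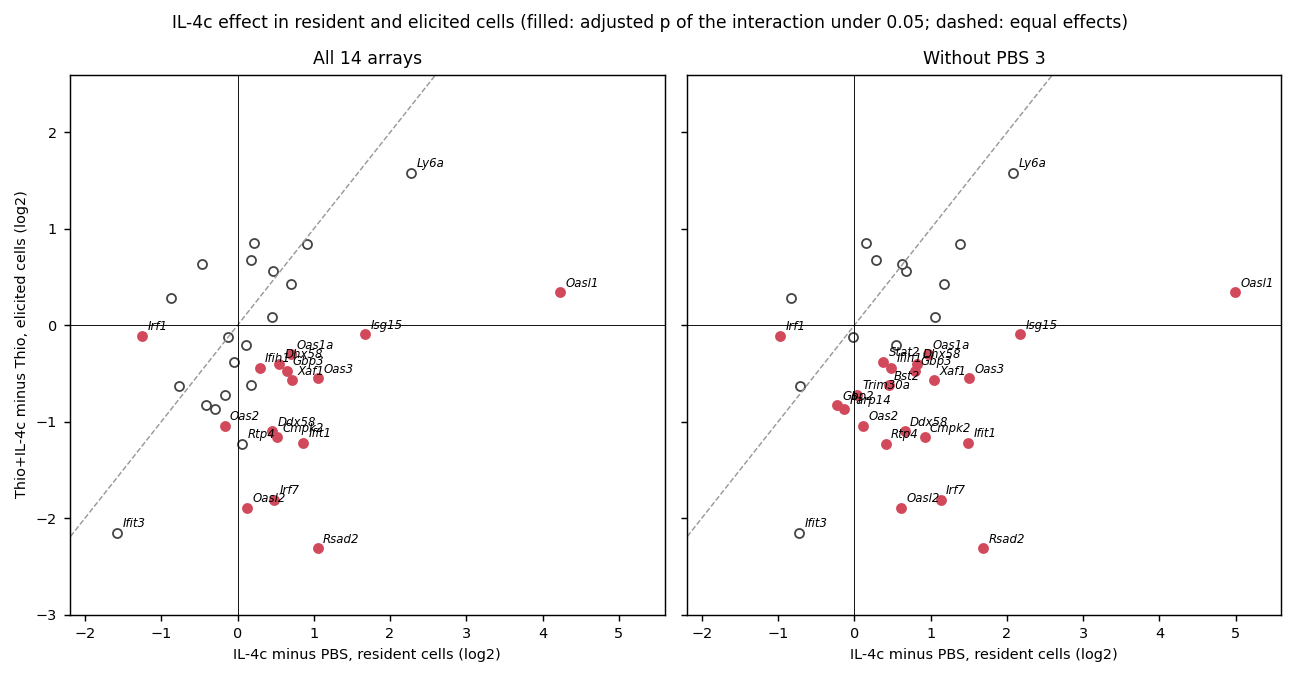
IL-4c minus PBS in resident cells (x axis, log2) against Thio+IL-4c minus Thio in elicited cells (y axis, log2) for the 35 genes, with all 14 arrays (left) and without PBS 3 (right); filled points have a called interaction and the dashed line marks equal effects. Rsad2 and Oasl1 lie farthest below the line, and 22 points are filled without PBS 3 against 16 with it. PBS 3 was singled out by the levels of these same genes, so the shift to the right follows from that choice.

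Thioglycollate without IL-4c was compared with PBS to describe the interferon genes of elicited against resident cells. Of the 35 genes, 23 were lower in Thio and 2 higher, while 24.3% of all genes were called lower and 20.1% higher. The median difference was -0.97, against -0.09 over all genes.

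Ly6a had the lowest difference, -3.94 (SE 0.39, adjusted p = 9e-06), followed among genes measured on all arrays by Gbp3 (-3.17), Ifi27l2a (-2.09), Oas2 (-2.08) and Rtp4 (-2.04). Ifi44 was also called (-3.39, and -1.81 in the authors' deposited values), but with 1 of 3 Thio arrays well above background its size is uncertain. Gbp3 was at 3.33, 3.56 and 3.9 in PBS and at 0.57, 0.37 and 0.33 in Thio, an adjusted p of 3.08e-08. Oas2 was at 3.65, 3.98 and 4.67 in PBS and at 1.97, 2.06 and 2.05 in Thio (SE 0.22, adjusted p = 1.58e-05). Thio 1 lay with the other Thio arrays for both genes. Among the transcription factors, Irf1 (-1.88), Irf7 (-1.34), Irf9 (-0.97) and Stat2 (-0.82) were all lower, and of the GTPases Gbp2 had a difference of -1.62 (SE 0.17, adjusted p = 1.18e-05), while Gbp5 differed by -0.97 with an SE of 0.58 and was not called.

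The genes called higher were Oasl1 and Rsad2. Oasl1 differed by 2.62 (SE 0.50, adjusted p = 0.00143), every Thio array lying above every PBS array. Rsad2 differed by 1.22 (SE 0.44, adjusted p = 0.0438), and its groups overlapped because PBS 3 was at 0.32. The Ifit genes and Isg15 were not called: the differences were -0.54 for Ifit1, 0.33 for Ifit2, -1.20 for Ifit3 and -0.30 for Isg15, each with an interval that spans 0.

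With slide as a fixed block 13 genes were lower and 1 higher, against 14.4% and 15.1% of all genes. Of the 25 calls, 13 were kept. The blocked differences are those of Thio 1 from the PBS arrays, the same as on slide 1 alone, so these fits are not separate checks. Calls lost were those of Cmpk2, Ddx58, Dhx58, Ifi44, Ifih1, Irf7, Oas3, Oasl2, Rsad2, Stat2, Xaf1 and Zbp1, and Gbp5 became one (-2.56, adjusted p = 0.00262). The blocked difference was about as large for Rsad2 (1.17), Stat2 (-0.80), Oasl2 (-1.14) and Ifih1 (-0.65), and larger for Zbp1 (-1.24). It was smaller in size for all the other lost calls: Xaf1 (-0.28), Oas3 (-1.17), Ifi44 (-2.55), Cmpk2 (-1.14), Dhx58 (-0.58), Irf7 (-1.09) and Ddx58 (-0.5). Within slide 1 alone, where Thio 1 is the only Thio array and is assumed to vary like the other groups, 11 genes were lower and 0 higher, against 15.5% and 18.1% of all genes. The 10 genes called in the full fit and on slide 1 alone were Gbp2, Gbp3, Ifi27l2a, Ifi35, Irf1, Irf9, Isg20, Ly6a, Oas2 and Rtp4. Without PBS 3 17 genes were lower and 2 higher, against 18.9% and 14.5% of all genes, and Ddx58, Irf7, Oasl2, Stat2, Xaf1 and Zbp1 were no longer called. Without Thio 1 Rsad2 (adjusted p = 0.0529) and Zbp1 (0.0685) were not called, and Bst2 and Oas1g were.

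The last comparison set elicited against resident cells when both had received IL-4c. It gave the widest separation: 30 of 35 genes were lower in Thio+IL-4c and 0 higher, while 42.1% of all genes were called lower and 27.9% higher. The median difference was -1.77, against -0.21 over all genes. For all 30 called genes, already chosen by their difference, the lowest IL-4c array lay above the highest Thio+IL-4c array. The share of all genes with such a separation was not counted.

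Ly6a (-4.64, SE 0.34), Gbp3 (-4.29, SE 0.14), Irf7 (-3.63, SE 0.42), Oas3 (-3.38, SE 0.34), Rtp4 (-3.32, SE 0.30) and Oasl2 (-3.29, SE 0.36) differed most. Gbp3 was at 4.35, 4.33, 4.04 and 4.24 in IL-4c and at 0.13, -0.18, 0.04 and -0.17 in Thio+IL-4c, which is 19.5-fold lower (adjusted p = 8.39e-10). Irf7 was at 1.05, 2.06, 1.4 and 2.22 in IL-4c, against -2.23 to -1.48 in Thio+IL-4c, or 12.4-fold lower (adjusted p = 2e-05). Oas3 was at 0.96, 1.57, 0.78 and 1.51 in IL-4c and at -2.32, -2.12, -1.73 and -2.52 in Thio+IL-4c. Cmpk2 (-3.12), Oas2 (-2.94), Ifit1 (-2.62), Ifi27l2a (-2.40), Xaf1 (-2.16), Ddx58 (-2.15), Rsad2 (-2.15), Isg15 (-2.06) and Gbp2 (-2.03) were each lower by more than 2 log2 units. The other probe of Xaf1 gave -0.07. Ifi44, dim in Thio+IL-4c, gave -2.30, and -0.99 in the authors' deposited values.

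The 5 genes not called were Oas1g, Usp18, Eif2ak2, Ifit2 and Gbp5. Eif2ak2, the kinase PKR that halts translation on sensing double-stranded RNA, was at 1.2, 1.23, 1.15 and 1.18 in IL-4c and at 1.17, 1.05, 0.55 and 1.04 in Thio+IL-4c, a difference of -0.24 (interval -0.67 to 0.20). Usp18, which removes Isg15 from proteins and dampens signalling at Ifnar2, differed by -0.47 (interval -1.24 to 0.30). In both genes the groups overlapped, and neither was called in any of the 5 comparisons; the same held for Ifit2, Gbp5 and the brighter probe of Oas1g. The other probe of Oas1g gave -0.84 here (adjusted p = 0.00148 over all probes) and -0.98 for the interaction (adjusted p = 0.0172), and the mean of its probes was called here, at -1.13 (adjusted p = 0.0178).

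The IL-4c and Thio+IL-4c arrays share no slide. With slide as a fixed block 17 genes were lower and 0 higher, against 14.4% and 12.3% of all genes. Of these 17, 16 were among the 30; the other was Gbp5, whose difference turned from 0.18 to -2.2 (adjusted p = 0.0218). The blocked value rests on Thio 1 for every gene, since no other array links the slides. Gbp5 was at -0.84 on Thio 1 and at 1.46 and 1.65 on Thio 2 and Thio 3. The 14 genes no longer called were Bst2, Ifi35, Ifi44, Ifit1, Ifit3, Irf1, Irf9, Isg15, Oas1a, Oasl1, Rsad2, Stat2, Xaf1 and Zbp1. Among them the blocked difference was about as large for Rsad2 (-2.21) and Stat2 (-1.12), and larger for Zbp1 (-1.46). It was near 0 for Irf1 (-0.08) and Ifi35 (-0.12). For all the others it was smaller in size: Bst2 (-0.88), Ifi44 (-1.03), Ifit1 (-1.94), Ifit3 (-1.47), Irf9 (-0.61), Isg15 (-1.73), Oas1a (-1.02), Oasl1 (-0.92) and Xaf1 (-1.28).

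**Figure D5:**
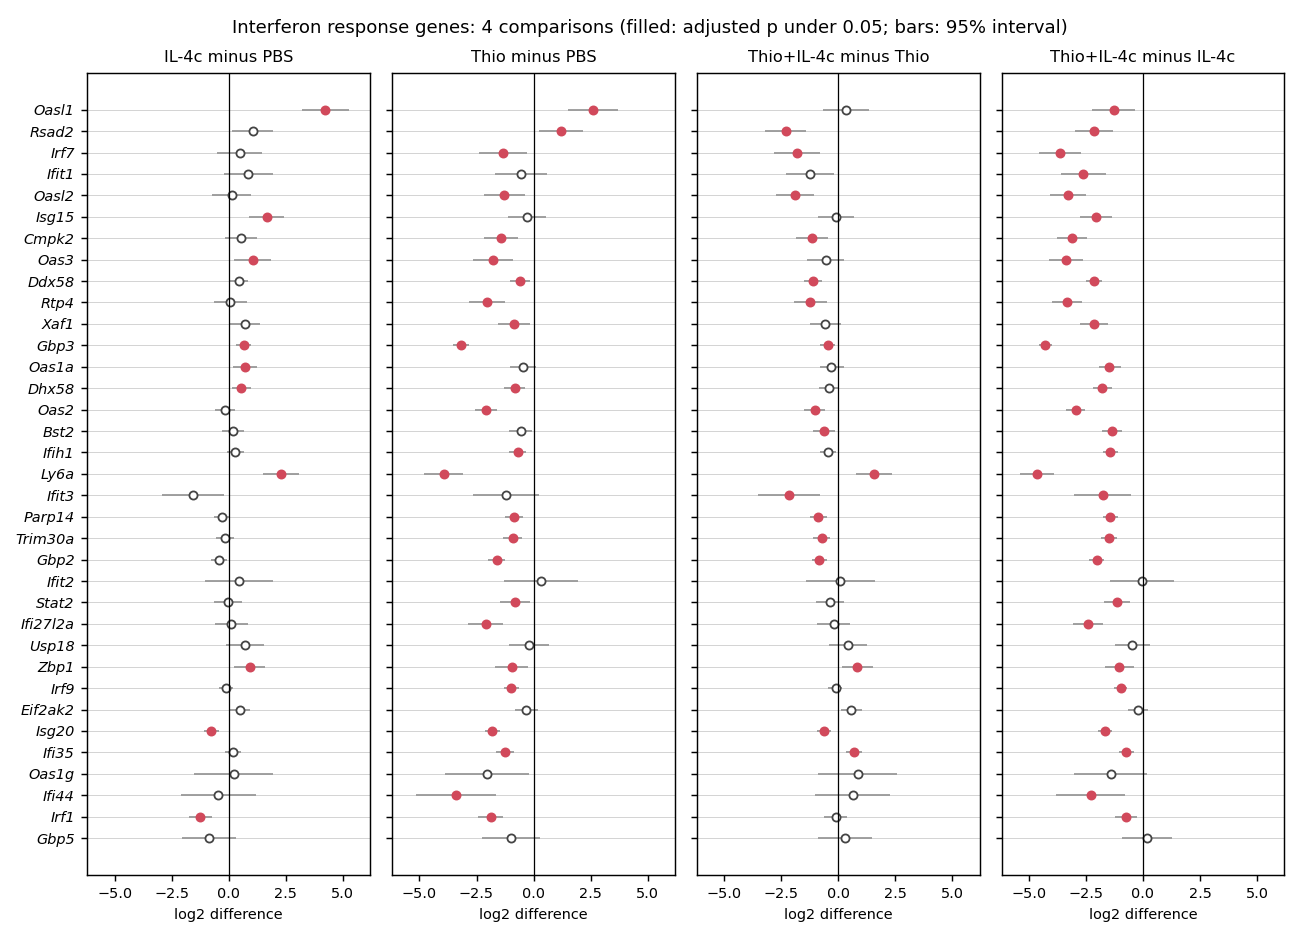
Log2 differences (x axis) of the 35 genes (y axis, ordered by the interaction) in 4 comparisons, with 95% intervals as bars and filled points for an adjusted p under 0.05. The called points lie on both sides of 0 for IL-4c minus PBS (8 higher, 2 lower) and on the lower side alone for Thio+IL-4c minus IL-4c (30 lower).

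Some of the 35 genes had quiet or unsettled profiles. Irf9, the DNA-binding partner of Stat2, differed with IL-4c by -0.13 in resident and by -0.12 in elicited cells, with SEs of 0.14. Stat2 differed by -0.04 and -0.38, neither called. Ifi27l2a, a small mitochondrial protein induced by interferon, was high in PBS (5.46, 5.9 and 6.98) and in IL-4c (6.26, 6.1, 6.25 and 6.28), and lower in both kinds of elicited cells (3.38 to 4.41). Trim30a, a ubiquitin ligase family member that restrains inflammatory signalling, and Parp14 fell with IL-4c in elicited cells and differed by -0.17 and -0.30 in resident ones, not called. For Oas1g, -2.38 to -1.71 in PBS and -5.35 to -2.27 in Thio, the probes gave -2.06 and 0.14 for Thio minus PBS, so no direction was settled.

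The calls were also counted by the presence of the ISRE letters. With IL-4c in resident cells, 4 of the 16 genes that hold them were higher and 0 lower, against 1 higher and 2 lower of the 11 without, and 16.8% and 15.4% of all genes. In elicited cells 7 of 16 were lower and 0 higher, against 4 lower and 1 higher of 11, and 23.0% and 16.3% of all genes. For the interaction 8 of 16 were negative, against 5 negative and 1 positive of 11, and 19.8% and 12.8% of all genes. Between Thio and PBS 7 of 16 were lower and 1 higher, against 9 lower and 1 higher of 11. All genes had shares of 24.3% and 20.1% there. Between Thio+IL-4c and IL-4c 13 of 16 were lower, against 10 of 11 and 42.1% of all genes. None with or without the letters was higher, against 27.9% of all genes. Of the genes whose windows are printed, Isg15 rose in resident cells and Rsad2, Bst2 and Gbp2 fell in elicited ones, while Gbp5 and Ifit1 were called in neither; the shares were not tested against each other.

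The receptor and its kinases were followed in a list of 17 interferon and receptor signalling genes. With IL-4c 5 were lower and 0 higher in resident cells, where 15.4% and 16.8% of all genes were, and 5 lower and 2 higher in elicited cells, where 23.0% and 16.3% were. The same shares stand beside each list that follows. Ifnar1 was at 2.11, 2.07 and 1.73 in PBS and at 0.49, 0.85, 0.71 and 0.51 in IL-4c, a difference of -1.33, and it fell by 0.52 on the log2 scale in elicited cells. Ifnar2 differed with IL-4c by -0.94 in resident and by -1.45 in elicited cells, and both were called. Jak1 and Tyk2 were called in no comparison, with differences from -0.34 to 0.36. Of the 8 interferon genes on the list, Ifna5 fell by 0.93 on the log2 scale with IL-4c in resident cells, and Ifna1 (-1.09) and Ifna11 (-1.26) were lower with IL-4c in elicited cells. Between Thio+IL-4c and IL-4c 7 of the 8 were called, in both directions, and with slide as a fixed block 1 of these, Ifna5 (0.87). Ifna11 was at -2.08 on Thio 1, nearer to the PBS arrays (-3.06 to -2.75) than to Thio 2 and Thio 3 (-4.2 and -3.94). Ifnb1 was called in no comparison, and the Ifna genes are close copies of each other.

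Among 18 sensors, adaptors and regulators upstream of interferon, IL-4c gave 4 higher and 5 lower in resident cells and 4 higher and 7 lower in elicited cells. Irf8, a factor of the same family as Irf7 that shapes the macrophage lineage, was at 3.91, 3.89 and 3.74 in PBS and at -2.82, -2.62, -2.16 and -1.95 in IL-4c, a difference of -6.23. In elicited cells it differed by -3.04, from 4.65, 4.15 and 3.97 to 1.31, 1.08, 1.17 and 1.29. Tlr3, the endosomal receptor for double-stranded RNA, differed by -2.23 in elicited and by -0.28 in resident cells, the latter not called. Sting1, the adaptor of DNA sensing, fell by 1.47 on the log2 scale in resident cells and rose by 1.12 in elicited ones, with an interaction of 2.59 that was called.

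Of 12 negative regulators, IL-4c gave 2 higher and 2 lower in resident cells, close to the shares of all genes, and 3 higher and 4 lower in elicited cells. Socs1, which blocks the kinases of the interferon and IL-4 receptors, rose with IL-4c by 2.89 in resident cells and by 2.15 in elicited cells. It also differed by 2.37 between Thio and PBS, although Thio 1 was at -1.71, among the PBS arrays at -1.28, -2.43 and -1.77, while Thio 2 and Thio 3 were at 1.65 and 1.7. With slide as a fixed block that difference was 0.12, and the rise in elicited cells was 1.02 and no longer called (adjusted p = 0.057). Of 49 other interferon response genes that were tested, of 55 listed, IL-4c gave 6 higher and 14 lower in resident cells and 7 higher and 20 lower in elicited cells. Between Thio and PBS 30 of the 49 were lower and 4 higher (24.3% and 20.1% of all genes), and between Thio+IL-4c and IL-4c 38 were lower and 2 higher (42.1% and 27.9%). Ch25h, which encodes the cholesterol hydroxylase that makes an antiviral oxysterol, was at -5.51, -7.73 and -6.58 in Thio, where it was well above background on 1 of 3 arrays, and at 1.88, 1.56, 1.81 and 1.71 in Thio+IL-4c. The groups did not overlap and the rise was called (adjusted p = 7.46e-08), but its size is set by a group near background. The lists were chosen with earlier results of these data in view, so their counts are a description.

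Markers of macrophages and of other cells moved between the same groups. The mean level of 5 Ly6C monocyte markers was 3.1 to 3.44 in PBS and 0.51 to 0.85 in IL-4c. It was 1.25 to 1.58 in Thio and 2.75 to 3.36 in Thio+IL-4c. IL-4c 3 is left out of this range, as the brightest of the markers had no value there. All 5 had a called positive interaction, the opposite sign to 15 of the 16 interferon genes called. The mean of 7 general macrophage markers was 5.22 to 5.48, 2.46 to 2.82, 3.95 to 4.37 and 2.95 to 3.15 in the same order. For 6 resident macrophage markers it was 5.69 to 5.9, 3.29 to 3.38, -1.57 to -0.74 and -1.22 to -0.95. The mean level of 8 B cell markers was -0.53 to 0.27 in PBS and -2.2 to -1.68 in IL-4c. It was -1.96 to -1.73 in Thio and -2.46 to -2.15 in Thio+IL-4c, and 6 of the 8 were called lower in Thio than in PBS. The 0.27, on PBS 1, leaves out a marker that had no value there. The mean of 6 plasmacytoid dendritic cell markers, cells known for high interferon output, was 0.09 to 0.98 in PBS, -0.60 to -0.19 in IL-4c, -0.56 to 0.20 in Thio and -0.35 to 0.11 in Thio+IL-4c. Over all arrays, Siglech among them was 5.67 to 6.83 and Pacsin1 3.56 to 4.53, while Ccr9 was -5.3 to -0.62 and Klk1 -5.29 to -1.07. Levels of different genes are not comparable, so no single marker gives the amount of these cells. That of 6 neutrophil markers was -3.06 to -2.88 in PBS and -1.84 to -0.93 in Thio+IL-4c, and that of 8 mesothelial and stromal markers -4.51 to -4.05 in PBS and -2.71 to -2.11 in Thio. Among the listed markers of other cells, no PBS array had Epx or Col1a1 well above background, and no IL-4c array Cd3g. The part of these cells in the levels of the interferon genes was not tested.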

How the data were processed

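Signals of 14 single-colour Agilent arrays were analysed. Per the file headers, the deposited intensity of each spot is a processed signal that the scanner software (Feature Extraction 11.0.1.1) had already background-corrected; the submitters' processing notes give version 11.5 and limma. The authors also deposited a table of processed values on a log2 scale, whose base was read from its highest values; its median is 9.2341 on every array and how it was corrected is not stated in these sources. It served as an alternative.

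Control spots and spots flagged as outliers by the software were left out, levels were log2 signals less the 75th percentile of their array, spots of a probe were averaged, probes well above background on at least 3 arrays were kept, and a gene was its brightest probe. Probes were named through their accession in the RefSeq gene table of GRCm38.p6, which named 27235 of 55681 probes. All 14 arrays entered 1 fit in limma 3.58.1 under R 4.3.3, with group means and moderated variances, two-sided, adjusted over all 20347 genes. The fit was tested on simulated data. Array number limits the precision. The genes, lists and tests were chosen with earlier results of these data known. Every tested gene of the 37 could be named. Of other lists, at most the 4 largest called rises and falls per list and comparison could be. To these were added Ifnar1, Ifnar2, Jak1, Tyk2, Itgam and Adgre1. Ifnb1, Ifna1, Ifna5, Ifna11, Gata6, Timd4, Siglech, Pacsin1, Ccr9, Klk1, Ly6d, Spib, Epx, Col1a1 and Cd3g were named after their values were seen. A gene that the rule also names is not reported here. Alternatives were slide as a fixed or random block or each slide alone, a replicate block, normexp (offset 50) with or without quantile normalization, quantile normalization alone, the authors' values, no or a stricter filter, the mean of probes, array weights and leaving out each array. Normexp used the median signal, since no mean signal column was at hand.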

Additional observations from a re-analysis of the deposited data

Results flagged for a closer look

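In groups of 4 arrays, a single array lay far from the other 3 in 4 of 70 checks, and chance flags about 1 in 20. Ifit2 was at -1.46 on IL-4c 1, against -4.09 to -3.77 on the other IL-4c arrays. Isg15 was at 1.77 on Thio+IL-4c 3, against 0.99 to 1.08. Oas1g was at -1.16 on Thio+IL-4c 4, against -4.18 to -3.95. Stat2 was at 0.70 on Thio+IL-4c 4, against 0.94 to 0.99.

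The IL-4c difference was unlike in elicited and resident cells, by the interaction test (limma, adjusted over all genes), for 16 of the 35 genes. The interaction was -3.89 for Oasl1, -3.36 for Rsad2, -2.29 for Irf7, -2.08 for Ifit1, -2.01 for Oasl2, -1.76 for Isg15, -1.68 for Cmpk2 and -1.60 for Oas3. It was -1.55 for Ddx58, -1.29 for Xaf1, -1.11 for Gbp3, -1.0 for Oas1a, -0.95 for Dhx58, -0.87 for Oas2, -0.73 for Ifih1 and 1.13 for Irf1.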

How the results depend on the processing

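Of 175 pairs of gene and comparison, 98 were called, and 48 of these kept their call and direction in every alternative that gave a value. For IL-4c versus PBS the 10 calls (32.1% of all genes called) became 16 with the authors' values (39.1% of all genes) and 16 with array weights (44.7%). They ranged from 6 to 19 when single arrays were left out (27.2% to 43.2% of all genes), with 19 without PBS 3 (27.2%). For Thio versus PBS the 25 calls became 14 with slide as a fixed block, 14 as a random block and 11 on slide 1 alone, and 18 to 25 when single arrays were left out. For Thio+IL-4c versus IL-4c the 30 calls (70.0% of all genes) became 17 with slide as a fixed block (26.7% of all genes). They became 20 as a random block (27.5% of all genes, correlation 0.764), and 29 to 31 when single arrays were left out (65.4% to 75.6%). For Thio+IL-4c versus Thio the 17 calls (39.3% of all genes) ranged from 14 to 21 when single arrays were left out (34.1% to 44.1%). The 16 interactions (32.5% of all genes) ranged from 8 to 22 in the same fits (28.1% to 40.1%). The cause was not tested, and slide 1 alone leaves 1 Thio array. The 1 reversal was that of Gbp5 in Thio+IL-4c versus IL-4c, to -2.2 with slide as a fixed block. Groups share replicate numbers, and 4 of 19 same-numbered pairs of arrays deviated together at r over 0.1. Differently numbered pairs were not compared, so this cannot decide whether the numbers pair samples. A replicate block gave 9 interactions (28.7% of all genes called), 7 calls for IL-4c versus PBS (28.4%) and 19 for Thio versus PBS (38.0%). For the interaction and IL-4c versus PBS the share of the 35 genes was then below that of all genes. This block gave 14 calls for Thio+IL-4c versus Thio (34.3% of all genes) and 30 for Thio+IL-4c versus IL-4c (67.4%). The median of all genes in IL-4c versus PBS moved from -0.01 to -0.17 under normexp with the 75th percentile, and in Thio+IL-4c versus IL-4c from -0.21 to -0.43 in the authors' values. Signals of Ifit2 and Ifi44 were not all well above background, which limits their differences.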
